A study of Arabidopsis thaliana with 15 samples.

Results

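Cuticular wax, the water-repellent lipid film on the aerial surface of plants, was examined through 10 Arabidopsis thaliana genes: 8 enzymes of wax synthesis and 2 MYB transcription factors that activate such genes. The genes were chosen by locus code, from their place in the pathway, with earlier results of these data known. They are KCS1 (AT1G01120), KCS2 (AT1G04220), CER6 (AT1G68530), CER1 (AT1G02205), CER3 (AT5G57800), CER4 (AT4G33790), MAH1 (AT1G57750), WSD1 (AT5G37300), MYB94 (AT3G47600) and MYB96 (AT5G62470). All 10 were found among the 22526 genes listed. Stranded mRNA sequencing was used on whole wild-type seedlings, 14 days old, of the accession Col-0. Seedlings were moved from agar to liquid medium with sucrose a day before the treatments. Dehydrated seedlings were lifted out of the medium and lay on filter paper in the light for 3 h or 1 h. Seedlings given abscisic acid (ABA), the plant hormone of water deficit, stayed in the medium with 20 µM ABA for 3 h or 1 h. Untreated control seedlings were harvested before either treatment began, so treatment, time and handling cannot be told apart in a comparison with them.

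Wax is built in epidermal cells. Fatty acids are first lengthened at the endoplasmic reticulum by an elongase whose first enzyme, a 3-ketoacyl-CoA synthase (KCS), sets chain length. The very long chains then go down the alkane branch, which CER1 and CER3 open and MAH1 extends to secondary alcohols and ketones, or the alcohol branch, in which CER4 makes primary alcohols and WSD1 joins them to acids as wax esters. MYB96 and MYB94 are R2R3-type MYB activators of wax genes, and MYB96 is known for its role in drought and ABA responses.

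The tables hold 1 combined column per condition, made from 3 biological replicates each, with 163762670 to 204315702 reads per column. No spread between replicates can therefore be given, and no difference between conditions was tested. Levels are given as CPM, counts scaled to library size with TMM factors, or as the authors' FPKM, which is also per transcript length. Levels of different wax genes are set beside each other in FPKM, and sums over marker genes are in CPM, which does not allow for length. Brackets after a log2 ratio hold its exact 95% counting interval, which covers counting error only. A gene is called measured from a mean of 1 CPM over the columns, which 9 of the 10 genes and 18876 genes in all reached, and MAH1 did not. Counts of higher and lower genes use a limit of 2-fold, which is one of size and not of significance. In whole seedlings, a different number of epidermal cells and a different amount of RNA per cell cannot be told apart.

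The promoters of the 10 genes, from 250 bases before to 50 bases after the gene start in the RefSeq annotation of TAIR10.1, were searched on both strands for 4 short motifs. ACGTG, the core of the ABA-responsive element, was found in 3 of 10, CER6, CER1 and CER4, and in 28.2% of the promoters of measured genes. CCGAC, the core of the dehydration-responsive element, was found in 3 of 10, CER1, MAH1 and WSD1, and in 16.4% of promoters. Of 2 motifs of the kind that R2R3 MYB proteins bind, TAACTG was found in 0 of 10 and in 9.32% of promoters, and ACCNAAC in 2 of 10, CER6 and CER1, and in 18.2%. These shares are close to those of all promoters or rest on few genes, and a match is a description of letters, not of a bound site. CER6 held ACGTG starting 219, 153, 147 and 86 bases before the gene start, and CER4 held it 183 bases before. Only some of the matches are shown, and that of CER4 is not. The stretches shown are from the alkane enzymes CER1 and MAH1, the ester synthase WSD1, and CER6, where a second ACGTG follows in small letters. Each is 30 bases, written 5′ to 3′ on the strand of the gene, with the motif in capitals, which reads as its reverse complement where the match is on the other strand.
CER1 chr1:418360-418389, plus strand, ACGTG starting 44 bases before the gene start: gctggcgcttcaACGTGcatgatcttgatt
CER1 chr1:418329-418358, plus strand, CCGAC on the other strand, starting 75 bases before: tctttcatttatGTCGGagcaacagacact
WSD1 chr5:14767364-14767393, plus strand, CCGAC starting 50 bases before: ctacttaagagaCCGACgaagatagcaacg
MAH1 chr1:21385895-21385924, minus strand, CCGAC starting 203 bases before: attaatgcataaCCGACtagatcatgtggt
CER6 chr1:25715160-25715189, minus strand, ACGTG starting 153 bases before: gcctaccgggcaACGTGaacgtgatcatca
KCS1, KCS2, CER3, MYB94 and MYB96 held none of the 4 motifs in this window.

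Levels per transcript length differed widely between the 10 genes. CER6 had the highest FPKM of the 10 in all 5 columns, at 506 after dehydration 3 h, 240 after dehydration 1 h, 754 after ABA 3 h, 368 after ABA 1 h and 227 in the control. CER4 and MAH1 lay at the other end, with 0.695 and 0.314 FPKM after dehydration 3 h and 1.35 and 0.0039 FPKM in the control. WSD1 stood above CER4 in each treated column, at 12.9 against 0.695 FPKM after dehydration 3 h, and below it in the control, at 0.616 against 1.35 FPKM. KCS2 had the second highest FPKM of the 10 after ABA 3 h, at 226, and the seventh highest in the control, at 3.98. Summed over the 10 genes, FPKM came to 1194 after dehydration 3 h, 491 after dehydration 1 h, 1596 after ABA 3 h, 679 after ABA 1 h and 382 in the control, and CER6 was the largest part of each sum. Some neighbours in this order were nearly level: after ABA 3 h, KCS1 and CER3 had 159.3 and 158.8 FPKM, a ratio of 1.00.

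**Figure D1:**
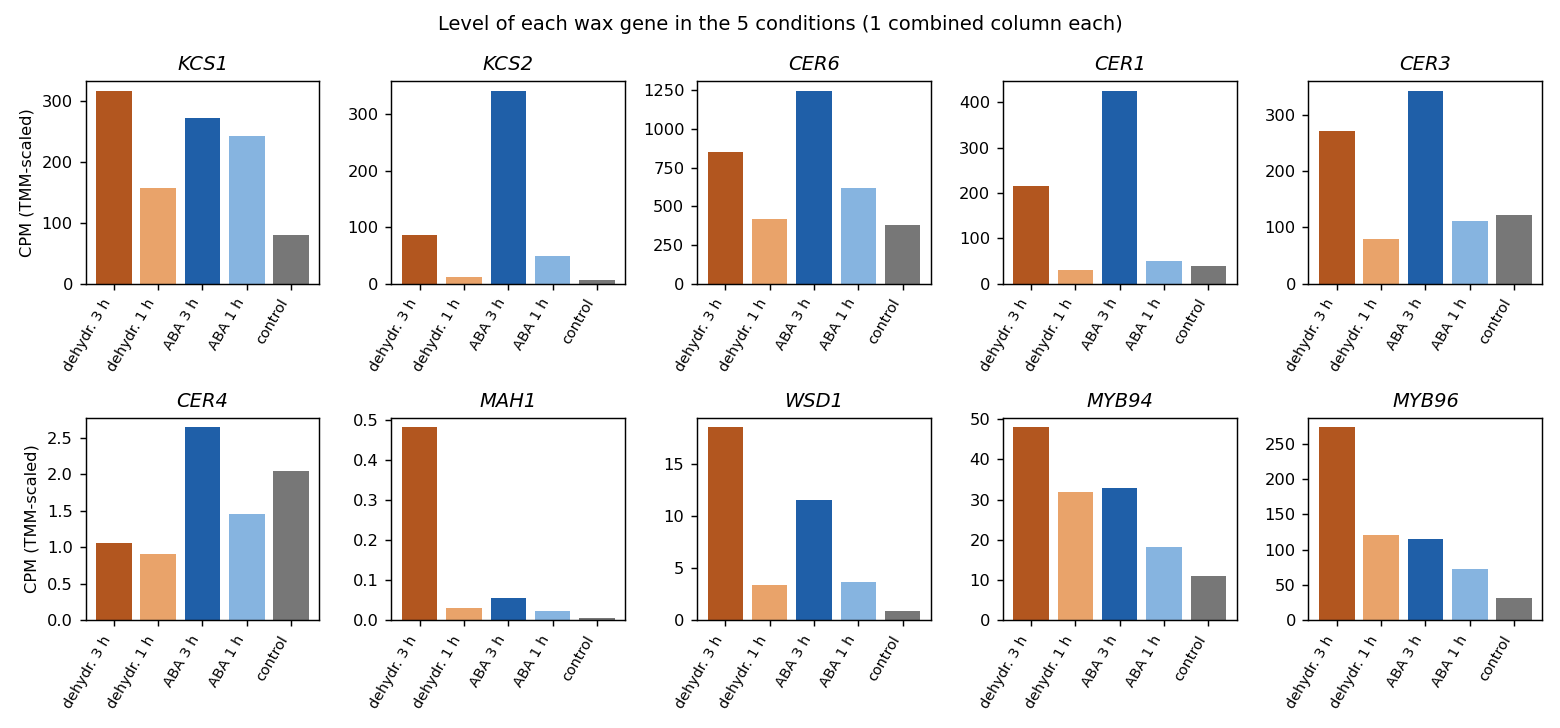
Level of each of the 10 wax genes in CPM (vertical axis, linear, from 0, its own range in each panel) in the 5 conditions, 1 combined column each, so there are no error bars. KCS2, CER6, CER1, CER3 and CER4 are highest after ABA 3 h, while KCS1, MAH1, WSD1, MYB94 and MYB96 are highest after dehydration 3 h.

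The 3 elongation enzymes were higher than in the control after 3 h of either treatment, and they differed in size and timing. KCS1, a synthase of broad chain-length use, stood at 317.5 CPM after dehydration 3 h, 157.9 after dehydration 1 h, 272.8 after ABA 3 h, 243.3 after ABA 1 h and 80.8 in the control. Its ratio to the control was thus already 3.01-fold after ABA 1 h, a log2 ratio of 1.59 (1.56 to 1.62), and 3.38-fold after ABA 3 h. KCS2, a synthase known from both cuticular wax and root suberin, stood at 86.2 CPM after dehydration 3 h, 11.4 after dehydration 1 h, 341.1 after ABA 3 h, 48.9 after ABA 1 h and 6.05 in the control. It had the largest ratio of the 9 measured genes after ABA 3 h, 56.4-fold, a log2 ratio of 5.82 (5.73 to 5.91), which lay above 99.6% of measured genes. After dehydration 3 h its log2 ratio was 3.83 (3.74 to 3.92), or 14.2-fold. CER6, the main synthase of the longest wax chains in shoots, stood at 850.3 CPM after dehydration 3 h, 419.2 after dehydration 1 h, 1247 after ABA 3 h, 615.8 after ABA 1 h and 380.3 in the control. CER6 had the highest FPKM of the 3 in all 5 columns and the smallest ratios of the 3 at 3 h, 2.24-fold after dehydration and 3.28-fold after ABA.

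KCS2 overlaps genes on the opposite strand in the TAIR10.1 annotation, AT1G04210 over 41 bp and AT1G04247 over 2302 bp of its 3088 bp. Neither the labels nor the processing notes state whether counting used strand, so KCS2 values are uncertain. AT1G04210, a receptor-like kinase gene, had log2 ratios to the control of 0.38 after dehydration 3 h, 0.46 after dehydration 1 h, 0.03 after ABA 3 h and 0.30 after ABA 1 h. AT1G04247 is not among the genes listed, so its reads could not be examined. None of the other 9 genes overlaps an annotated gene. Shared sequence with relatives was checked as well: the longest RefSeq transcript of each gene holds 997 to 2207 windows of 100 bases, the read length, that lie unbroken in the genome, and 0 of these occur at a second place.

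CER1 and CER3, which act together in alkane formation, were at least 2-fold higher than in the control at 3 h and within 2-fold of it at 1 h. CER1 stood at 216.1 CPM after dehydration 3 h, 29.4 after dehydration 1 h, 425.6 after ABA 3 h, 50.6 after ABA 1 h and 39.2 in the control. Both 3 h columns lie far above the other 3, and the dehydration 1 h column is the lowest. The log2 ratio of CER1 to the control was 2.46 (2.43 to 2.50) after dehydration 3 h and 3.44 (3.41 to 3.48) after ABA 3 h, 5.52-fold and 10.9-fold. CER3 stood at 271.1 CPM after dehydration 3 h, 80.1 after dehydration 1 h, 343.1 after ABA 3 h, 110.8 after ABA 1 h and 121.3 in the control. Its ratios at 3 h were smaller, 2.23-fold after dehydration and 2.83-fold after ABA, and its log2 ratios at 1 h were −0.60 (−0.63 to −0.57) after dehydration and −0.13 (−0.16 to −0.10) after ABA. The balance of the pair differed accordingly: the FPKM of CER1 divided by that of CER3 was 0.784 after dehydration 3 h, 0.344 after dehydration 1 h, 1.19 after ABA 3 h, 0.449 after ABA 1 h and 0.309 in the control.

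CER4, WSD1 and MAH1 had the lowest FPKM of the wax genes in every column. CER4, the reductase that makes primary alcohols, had 190 reads after dehydration 3 h, 172 after dehydration 1 h, 512 after ABA 3 h, 242 after ABA 1 h and 361 in the control. Among the 9 measured genes it was the only one at least 2-fold lower than in the control in any column, 2.25-fold after dehydration 1 h, with a log2 ratio of −1.17 (−1.44 to −0.90). Its log2 ratio was −0.94 (−1.20 to −0.68) after dehydration 3 h, and after ABA 3 h it was 0.37 (0.18 to 0.57). WSD1, the wax ester synthase, had 3303 reads after dehydration 3 h, 646 after dehydration 1 h, 2234 after ABA 3 h, 613 after ABA 1 h and 153 in the control. Every treated column lies above the control, and WSD1 had the largest ratio of the 9 measured genes after dehydration 3 h, 21.4-fold, with a log2 ratio of 4.42 (4.19 to 4.66). MAH1, the cytochrome P450 that hydroxylates alkanes in the middle of the chain, had 86 reads after dehydration 3 h, 6 after dehydration 1 h, 11 after ABA 3 h, 4 after ABA 1 h and 1 in the control. Its reads after dehydration 3 h stood against 6 after dehydration 1 h, a ratio of 15.2 with a counting interval of 6.72 to 42.6, and against the single control read, a ratio of 85.3 with an interval of 14.9 to 3409. MAH1 is best known from the inflorescence stem.

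Both activators were higher than in the control in all 4 treated columns. MYB96 stood at 272.9 CPM after dehydration 3 h, 120.4 after dehydration 1 h, 115.8 after ABA 3 h, 73.3 after ABA 1 h and 31.2 in the control. Its ratio was 8.76-fold after dehydration 3 h and 3.86-fold after dehydration 1 h, and 3.71-fold and 2.35-fold after ABA at 3 h and at 1 h. MYB94, a related factor, stood at 48.0 CPM after dehydration 3 h, 31.9 after dehydration 1 h, 32.9 after ABA 3 h, 18.2 after ABA 1 h and 11.1 in the control. Its ratios were smaller, at 4.34-fold after dehydration 3 h and 2.88-fold after dehydration 1 h, and at 2.98-fold and 1.64-fold after ABA at 3 h and at 1 h. In FPKM, MYB96 was 4.88 times MYB94 after dehydration 3 h and 2.42 times in the control, with the other 3 columns in between. Both factors were thus higher after dehydration than after ABA at the same hour, whereas CER1, CER3, CER4, CER6 and KCS2 were lower. Only MYB96 and CER4 at 3 h and KCS2 at both hours were past 2-fold in this comparison. KCS1 and WSD1 had log2 ratios above 0 at 3 h and below 0 at 1 h.

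Set against all measured genes, the counts were as follows. After dehydration 3 h, 8 of the 9 measured wax genes were at least 2-fold higher than in the control, where 10.5% of all measured genes were, and 0 were at least 2-fold lower, where 6.49% were. The exception was CER4, and the median log2 ratio of the 9 was 2.12, against −0.02 over all measured genes. After ABA 3 h the count was again 8 higher and 0 lower, with 9.12% and 7.79% of all measured genes and a median of 1.76 against 0.01. CER4 was again the exception. After dehydration 1 h, MYB94, MYB96 and WSD1 were the 3 genes at least 2-fold higher and CER4 the 1 lower, with 7.73% and 5.62% of all measured genes and a median of 0.91 against −0.01. KCS1 and KCS2 lay just under the limit in that column, at log2 ratios of 0.97 and 0.91, and with total-count scaling they passed it. After ABA 1 h, KCS1, KCS2, WSD1 and MYB96 were the 4 genes higher and 0 were lower, with 4.54% and 5.13% of all measured genes and a median of 0.72 against 0.02. These 4 comparisons share the control column, and the genes were chosen with earlier results of these data known.

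**Figure D2:**
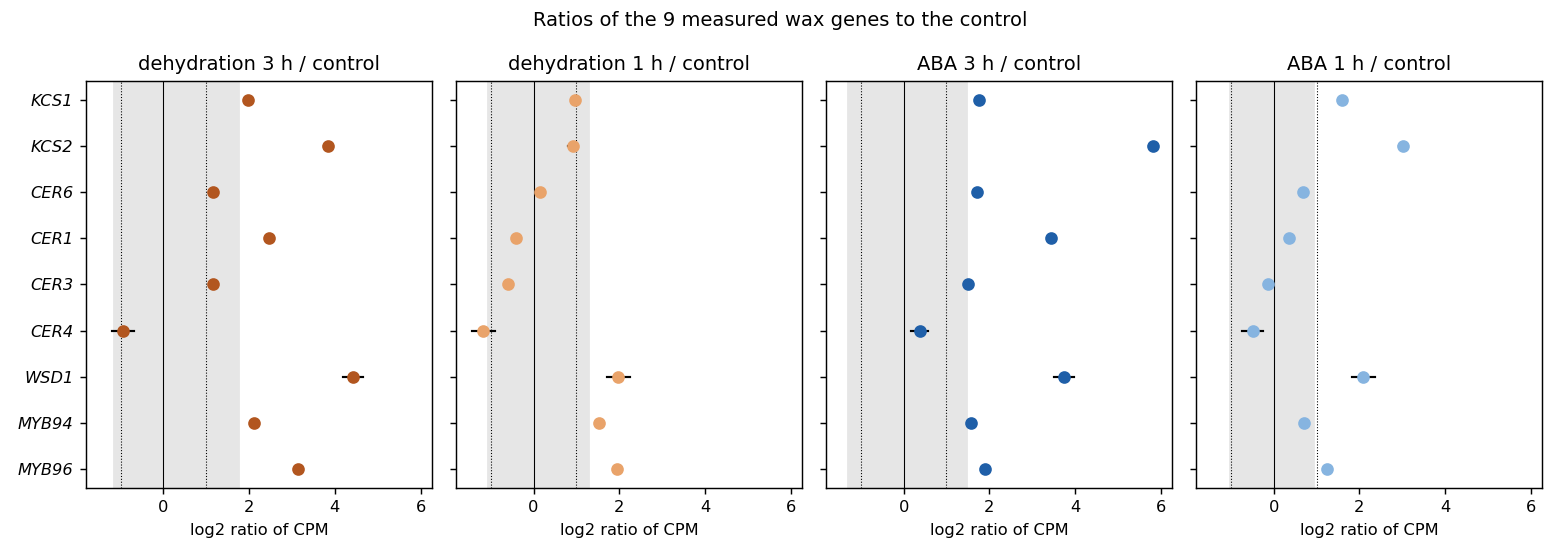
Log2 ratio of CPM to the control (horizontal axis) for the 9 measured wax genes in the 4 treated columns, with exact 95% counting intervals as black lines, many of them narrower than the dots. Grey bands hold the central part of all measured genes, from the 5th to the 95th percentile, and dotted lines mark 2-fold. At 3 h CER4 is the 1 gene left of the upper dotted line in both treatments. CER1, CER3 and CER6 lie inside the grey bands at 1 h, and CER3 and CER6 also do after dehydration 3 h.

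Between the times of a treatment, 7 of the 9 genes were past the limit on the high side after dehydration 3 h against dehydration 1 h, where 5.34% of measured genes were, and 0 on the low side, where 1.48% were. MYB94 and CER4 stayed under the limit, at log2 ratios of 0.59 and 0.23. KCS1 and CER6 were just past it, at 2.01-fold and 2.03-fold, and both were under it with upper-quartile scaling, at log2 ratios of 0.98 and 0.99, and with total-count scaling, at 0.91 and 0.92. Between 3 h and 1 h of ABA, 5 genes were at least 2-fold higher, KCS2, CER6, CER1, CER3 and WSD1, where 4.92% of measured genes were, and 0 were lower, where 2.39% were. CER6 was at 2.02-fold there, and under the limit at a log2 ratio of 0.92 with either of these scalings. The higher genes made up 78.2% of all genes past the limit for dehydration and 67.2% for ABA, and with total-count scaling 67.0% and 57.1%. CER1 and KCS2 had the largest differences between the times in both treatments: 7.34-fold and 7.57-fold in dehydration, and 8.41-fold and 6.98-fold in ABA. KCS1 differed least of the 9 in ABA, at 1.12-fold. The dehydration log2 ratio of 3 h over 1 h minus that of ABA was 0.84 (0.82 to 0.87) for KCS1 and 0.79 (0.62 to 0.97) for WSD1, both larger in dehydration, and −0.63 for CER4. It was 0.00 (−0.01 to 0.02) for CER6. None of the 9 reached a log2 difference of 1 in either direction, where 5.71% of measured genes did towards dehydration and 4.59% towards ABA.

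**Figure D3:**
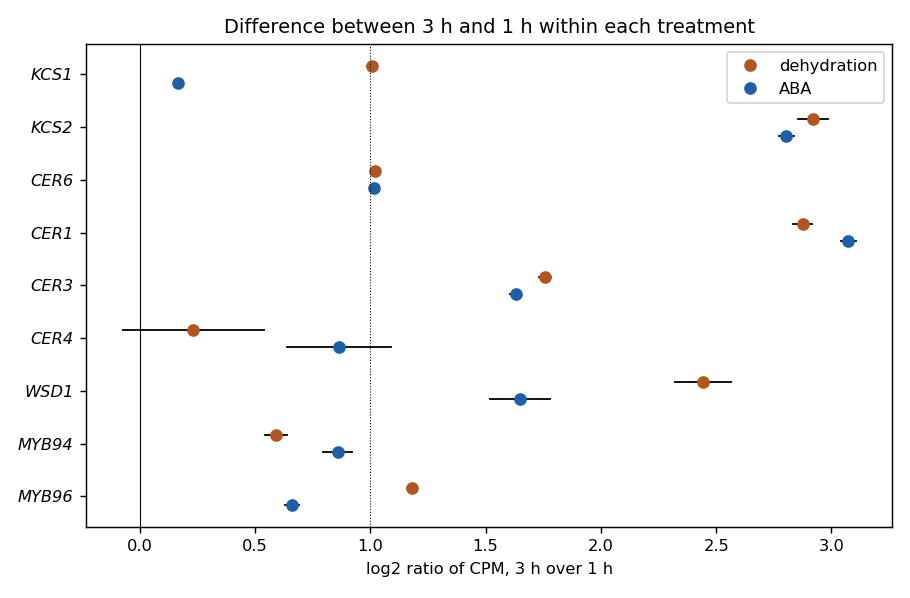
Log2 ratio of CPM at 3 h over 1 h (horizontal axis) for the 9 measured wax genes in dehydration (orange) and ABA (blue), with exact 95% counting intervals as black lines and a dotted line at 2-fold. CER1 and KCS2 lie farthest to the right in both treatments, and KCS1 is near 0 in ABA and near 1 in dehydration.

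Dehydration was also set against ABA at the same hour. At 3 h, MYB96 was 2.36-fold higher after dehydration, the 1 gene of 9 past the limit in that direction, where 9.15% of measured genes were. KCS2 was 3.96-fold lower and CER4 2.48-fold lower after dehydration, where 6.82% of measured genes were at least 2-fold lower. CER1 lay just inside the limit, at 216.1 CPM after dehydration and 425.6 CPM after ABA, a log2 ratio of −0.98. At 1 h, KCS2 was 4.29-fold lower after dehydration, the 1 gene of 9 past the limit, where 3.5% of measured genes were lower, and 0 were higher, where 5.4% of measured genes were. WSD1 had 3.41 CPM after dehydration 1 h and 3.68 CPM after ABA 1 h, a log2 ratio of −0.11 (−0.27 to 0.05).

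The wider pathway was described with lists of other genes. The 11 listed partners of the elongase and enzymes that supply or activate its chains were all measured. After dehydration 3 h 4 were at least 2-fold higher and 0 lower, against 10.5% and 6.49% of all measured genes. Their median log2 ratio was 0.78. After ABA 3 h 6 were higher and 0 lower, against 9.12% and 7.79%, with a median of 1.19. At 1 h of either treatment 0 of the 11 were 2-fold apart from the control. Of all measured genes, 7.73% were higher and 5.62% lower after dehydration 1 h, and 4.54% and 5.13% after ABA 1 h. The 1 h counts are close to these shares or rest on few genes. CER2, which the elongase needs for the longest chains, had log2 ratios of 2.04 after dehydration 3 h and 1.71 after ABA 3 h. LACS2, a long-chain acyl-CoA synthetase known from cutin synthesis, had 2.35 and 1.41. ACC1, the cytosolic carboxylase that makes malonyl-CoA for elongation, had 0.78 and 1.38, and PAS2, the dehydratase of the elongase, had 0.36 and 1.29. Of 4 genes of wax export, 3 were at least 2-fold higher after dehydration 3 h and 0 lower, against the same 10.5% and 6.49%. After ABA 3 h 2 were higher and 0 lower, against 9.12% and 7.79%. The lipid transfer protein gene LTPG1 had log2 ratios of 1.59 and 1.51, and the transporter genes ABCG11 and ABCG12 had 1.26 and 1.28 after dehydration 3 h and 1.32 and 0.94 after ABA 3 h. LTPG2 had −0.02 and 0.05. At 1 h of either treatment 0 of the 4 export genes were 2-fold apart from the control. The export counts rest on few genes.

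The other KCS genes, which serve elongation in other lipids and organs as well, went both ways. Of 18 listed, 16 were in the tables and 13 were measured. After dehydration 3 h 1 of the 13 was at least 2-fold higher and 2 were lower, against 10.5% and 6.49% of all measured genes. The median log2 ratio was −0.15. After ABA 3 h 4 were higher and 1 lower, against 9.12% and 7.79%, with a median of 0.66. After dehydration 1 h 1 was higher and 3 lower, against 7.73% and 5.62%. After ABA 1 h 1 was higher and 1 lower, against 4.54% and 5.13%. These counts rest on few genes. KCS3 had the highest ratio of the 13 in each of the 4 comparisons, at log2 2.42 after dehydration 3 h, 1.14 after dehydration 1 h, 3.06 after ABA 3 h and 1.85 after ABA 1 h. KCS12 lay on the other side in all 4, at −2.05, −1.56, −2.00 and −2.45 in the same order. KCS19 had 25.3 CPM after dehydration 3 h and 142.5 CPM after ABA 3 h, against 61.8 CPM in the control. Its log2 ratio was −1.29 after dehydration 3 h, and its level was 2.31-fold higher after ABA 3 h. At 1 h it had 10.4 CPM after dehydration and 44.7 CPM after ABA, log2 ratios of −2.57 and −0.47. KCS16 had a log2 ratio of −0.15 after dehydration 3 h and −1.71 after dehydration 1 h.

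Of 18 listed relatives of CER1, CER4, MAH1 and WSD1, 12 were in the tables and 7 were measured. After dehydration 3 h 5 of the 7 were at least 2-fold higher, against 10.5% of all measured genes. After ABA 3 h 2 were, against 9.12%. In either column 0 were lower, where 6.49% and 7.79% of all measured genes were. AT1G02190, annotated like CER1 in the fatty acid hydroxylase superfamily, had 4.48 CPM after dehydration 3 h, 0.712 after dehydration 1 h, 0.341 after ABA 3 h, 0.258 after ABA 1 h and 0.333 in the control. It is among the 5 higher genes after dehydration 3 h, and only that column brought it to the measured limit. Its log2 ratio was thus 3.75 after dehydration 3 h and 0.03 after ABA 3 h, where CER1 had 2.46 and 3.44. AT2G38995, annotated like WSD1 in the O-acyltransferase family, had 2.40 after dehydration 3 h and −0.51 after ABA 3 h, where WSD1 had 4.42 and 3.74. Its relatives AT5G12420 and AT3G49210 had 1.05 and 1.18 after dehydration 3 h and 1.65 and 1.48 after ABA 3 h.

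Among 13 other regulators of wax and cuticle genes, 10 were measured, and the largest ratios were on the low side. DEWAX (AT5G61590), an AP2-domain repressor of wax genes, stood at 45.7 CPM after dehydration 3 h, 13.8 after dehydration 1 h, 19.4 after ABA 3 h, 8.53 after ABA 1 h and 155.1 in the control. Every treated column lies below the control and the 1 h column of each treatment is the lower one, with log2 ratios to the control between −4.18 and −1.76. AT5G07580, annotated as an integrase-type DNA-binding protein, had log2 ratios between −2.10 and −1.48. WRI4, an AP2-domain activator, had −0.98 after dehydration 3 h, −0.51 after dehydration 1 h, −0.11 after ABA 3 h and −1.55 after ABA 1 h. MYB106, a MYB factor of cuticle genes, had 1.37 after dehydration 3 h and 1.00 after ABA 3 h. MYB106 lay at the limit after ABA 3 h, under it here and past it with RLE scaling. By count, 2 of the 10 were at least 2-fold higher and 2 lower after dehydration 3 h, against 10.5% and 6.49% of all measured genes. After dehydration 1 h 0 were higher and 2 lower, against 7.73% and 5.62%. After ABA 3 h 0 were higher and 2 lower, against 9.12% and 7.79%. After ABA 1 h 0 were higher and 3 lower, against 4.54% and 5.13%.

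Cutin synthesis, the other arm of cuticle formation, was listed with 13 genes, all measured. After dehydration 3 h 3 were at least 2-fold higher and 0 lower, against 10.5% and 6.49% of all measured genes. The median log2 ratio was 0.11. After ABA 3 h 3 were higher and 0 lower, against 9.12% and 7.79%, with a median of 0.64. After dehydration 1 h 0 were higher and 1 lower, against 7.73% and 5.62%. After ABA 1 h 1 was higher and 0 lower, against 4.54% and 5.13%. The 1 h counts are close to these shares or rest on few genes. CYP86A2, a fatty acid hydroxylase of cutin synthesis, had 769.5 CPM after dehydration 3 h and 169.2 CPM in the control, a log2 ratio of 2.19, and 478.8 CPM after ABA 3 h, a 2.83-fold higher level than in the control. CYP86A4 and GPAT4, an acyltransferase of the same route, had 1.46 and 1.42 after dehydration 3 h and 0.85 and 1.01 after ABA 3 h. CYP77A4, a P450 of the same list, had 0.11 and 1.42. The annotated gene of CYP77A4 is overlapped over all 1773 bp by a gene on the opposite strand, and that of MYB106 over 1579 of 1967 bp. CER2, LTPG1, ABCG11, WRI4, AT5G07580 and CYP86A2 also overlap such genes in part, as do the markers SLAC1, PYK10, CASP1 and EXPA7, so their values are uncertain in the way KCS2 is.

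**Figure D4:**
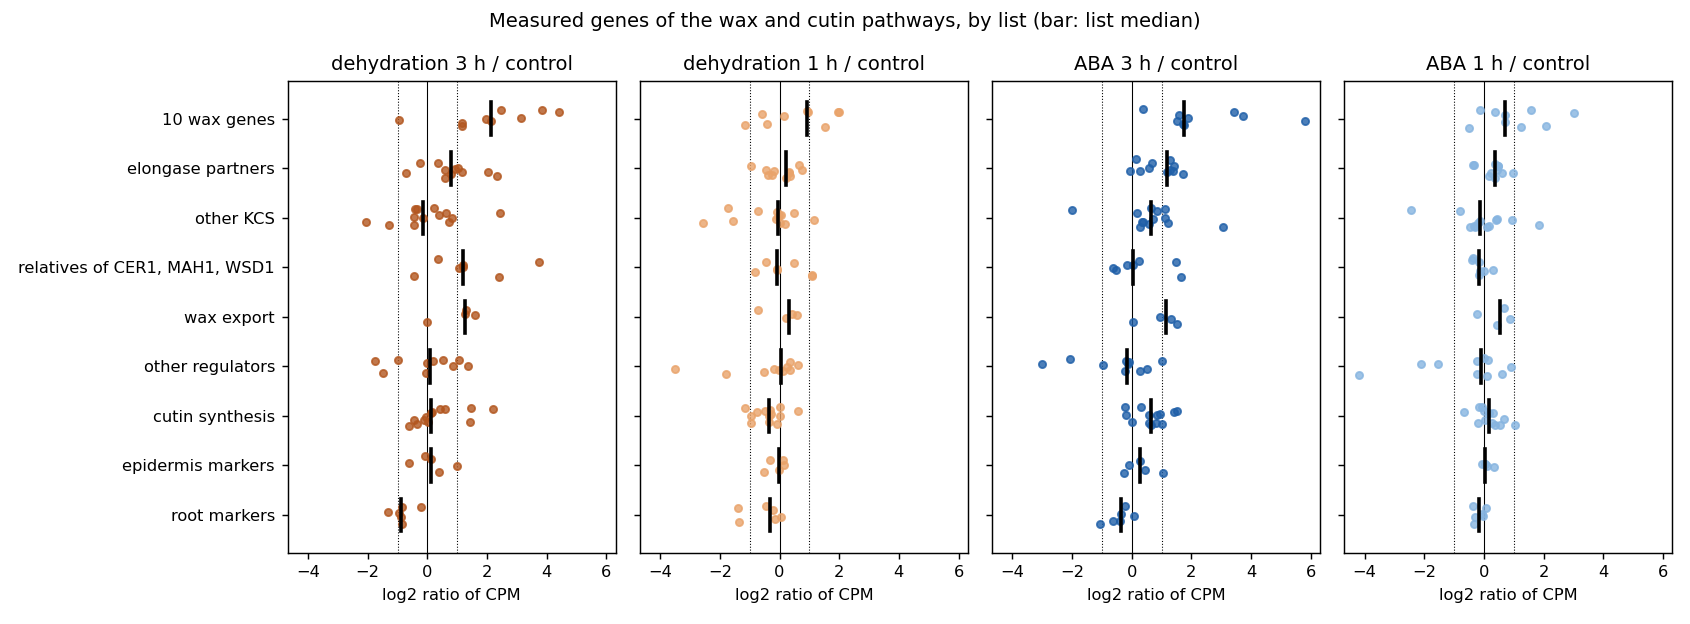
Log2 ratio of CPM to the control (horizontal axis) for the measured genes of each list in the 4 treated columns. Each dot is a gene, moved up or down at random within its row, black bars are list medians and dotted lines mark 2-fold. The medians of the 10 wax genes' list, over its 9 measured genes, are 2.12, 0.91, 1.76 and 0.72 from left to right, and those of the cutin list are 0.11, −0.35, 0.64 and 0.16.

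Epidermis markers were set beside the wax genes. All 5 were measured and none was at 0 reads in any column. Summed, they came to 1763 CPM after dehydration 3 h, 929 after dehydration 1 h, 1869 after ABA 3 h, 1160 after ABA 1 h and 1133 in the control. LTP1, a lipid transfer protein gene, was at a log2 ratio of 1.00 after dehydration 3 h and 1.04 after ABA 3 h. It stayed under 2-fold after dehydration 3 h with RLE or upper-quartile scaling, and after ABA 3 h with upper-quartile or total-count scaling. Without LTP1 the sums were 428, 463, 495, 484 and 467 CPM in the same order. ATML1, an epidermis identity factor, was at −0.60 after dehydration 3 h. ACR4 was at 0.41 and PDF1 at −0.08 there, and the median of the epidermis list was 0.115. Root markers summed to 2150, 2163, 2160, 2416 and 2533 CPM in that order, and without PYK10 to 50.2, 81.9, 67.2, 88.5 and 94.2 CPM. Of the 6, none was at 0 reads, and 1 was at least 2-fold lower after each of dehydration 3 h and ABA 3 h, 2 after dehydration 1 h and 0 after ABA 1 h, with 0 higher. Of all measured genes, 6.49%, 7.79%, 5.62% and 5.13% were lower in these columns as just listed. The shares higher were 10.5%, 9.12%, 7.73% and 4.54%. COBL9 and EXPA7, both root hair genes, had log2 ratios of −1.32 and −0.86 after dehydration 3 h, and CASP1 and SHR had −0.86 and −0.94. The median of the root list there was −0.88. The part of these marker values in the ratios of the wax genes was not tested. Of 4 guard cell markers, none at 0 reads, the sums were 44.3, 53.9, 40.1, 33.8 and 43.8 CPM in the same order of columns. MYB60 had −2.11 after ABA 3 h and −0.04 after dehydration 3 h, with −1.36 after ABA 1 h, and KAT1, FAMA and SLAC1 stayed within log2 ratios of −0.40 and 0.65.

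Genes with profiles most like those of 4 of the wax genes were sought among 18875 measured genes. Distances were Euclidean, between profiles of log2(CPM + 0.5) over the 5 columns, each centred on its mean. Nearest to MYB96 were AT5G14700, annotated as a Rossmann-fold protein, at a distance of 0.30, AT1G69610 at 0.37, the RNA-binding protein gene GRP7 (AT2G21660) at 0.41 and AT1G70420 at 0.42. The median distance of all genes from MYB96 was 2.35, and MYB94 was the wax gene nearest to it, at 0.75 and rank 56. WSD1, KCS1, CER6 and CER3 also lay within that median, at 1.29, 1.30, 1.84 and 2.11. CER1, CER4 and KCS2 lay beyond it, at 2.82, 2.87 and 3.73. Nearest to MYB94 were AT1G76580, annotated as an SBP-domain factor, at 0.15, AT1G29670 at 0.19, AT1G66760 at 0.25 and PUP10 (AT4G18210) at 0.30. CER1, CER4 and KCS2 also lay beyond the median distance from MYB94, which was 1.73, and the other measured wax genes within it. For CER1 they were AT5G54165 at 0.34, AT1G07985 at 0.66, AT1G24600 at 0.67 and the chitinase-family gene AT2G43580 at 0.73. CER3 was the wax gene nearest to CER1, at 1.62 and rank 65. For WSD1 they were the clock gene ELF4 (AT2G40080) at 0.37, AT2G21130 at 0.48, ABCG27 (AT3G52310) at 0.61 and AT4G30830 at 0.65, and MYB96 was the nearest wax gene, at 1.29 and rank 91. With 5 columns, many genes share a profile by these distances.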

How the data were processed

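Per the labels' protocols, libraries from 3 biological replicates per condition were made with a stranded mRNA kit, pooled by condition and sequenced as 100-cycle single reads, so condition and sequencing pool cannot be told apart. The build TAIR10 and the tools Cufflinks 2.1.1, Cuffdiff, TopHat2 2.0.8 and DESeq2 are named in the submitters' processing notes. What each did, and how and on which strand reads were counted, is not stated there. Per the file headers, the authors deposited per-gene read counts, not normalized, and FPKM values, each condition having a single column.

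Counts were scaled to CPM with TMM factors (edgeR 4.0.16, R 4.3.3) from the 22186 rows that filterByExpr kept. For ratios, counts under 3 were set to 3, except the MAH1 ratios to its control read, which use the counts. A count of 3 is 0.0155 to 0.0180 CPM. A single 0 whose FPKM was 1 or more was set to missing. Intervals are exact conditional binomial (Clopper-Pearson), from SciPy 1.17.1, and for differences of ratios they come from summed log-count variances. Alternatives were other scalings, filters, size limits and FPKM ratios. Ratio and interval code was tested on simulated data.

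The members and lists were chosen with earlier results of these data known. Named are all 10 genes, up to 4 measured genes per list with the largest absolute ratio to the control, and the 4 nearest profiles of MYB96, MYB94, CER1 and WSD1. Of 102 list genes, names of 89 matched the tables or RefSeq. Loci without a matching name are given by locus code. Sequences and gene positions are from RefSeq's copy of TAIR10.1. A comparison of protein sequences was planned but not run, as no protein table was used here.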

Additional observations from a re-analysis of the deposited data

Results flagged for a closer look

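In each of 3 wax genes, 2 ratios lay on opposite sides of 0, with counting intervals that leave 0 out. CER4 had a log2 ratio to the control of −0.94 after dehydration 3 h and 0.37 after ABA 3 h. CER1 had −0.41 after dehydration 1 h and 0.37 after ABA 1 h, and in both treatments it stood above the control at 3 h. KCS1 had a log2 ratio of dehydration to ABA of 0.22 at 3 h and −0.62 at 1 h. With 1 combined column per condition, the difference was not tested in any of the 3. Counting intervals are narrow at this read depth, and the share of all measured genes that meet the same rule was not counted.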

How the results depend on the processing

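No paired analysis was possible because the columns carry no replicate number, and leaving out replicates was not possible for the same reason. With 1 column per condition, no alternative bears on the spread between seedlings. Counts of the 9 measured wax genes at least 2-fold apart stayed within 1.5 times the reported count in 141 of 162 cases. Shares of all genes tested under the same setting stand in brackets. With upper-quartile scaling 1 gene, CER4, and not 0 was lower after dehydration 3 h than in the control (7.4%), and with total-count scaling 5, not 3, were higher after dehydration 1 h (9.38%). Total-count scaling moved the median log2 ratio of all genes after dehydration 1 h to 0.11, against −0.01 with TMM, and that of dehydration 3 h against dehydration 1 h to −0.12, against −0.01. With no filter, which lets MAH1 in, 2 genes were higher after dehydration 3 h than after ABA 3 h (13.4%), and 1 had a larger 3 h over 1 h ratio in dehydration (8.45%). At a mean CPM of at least 5, which leaves CER4 out, 0 genes were lower after dehydration 1 h than in the control (4.7%) and 1 was lower after dehydration 3 h than after ABA 3 h (5.78%). On the log2(FPKM + 1) scale these counts were 0 (4.63%) and 1 (5.49%).

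With a 1.5-fold limit, 1 gene was lower after dehydration 3 h than in the control (14.7%), and 5 were higher (15.6%) and 2 lower (13.2%) after dehydration 1 h. Between ABA 3 h and ABA 1 h 8 were higher (10.7%). Dehydration against ABA gave 2 higher at 3 h (16.2%), and 2 higher (10.9%) and 4 lower (8.25%) at 1 h. The difference of time ratios gave 2 towards dehydration (13.4%) and 1 towards ABA (13.4%). With a 3-fold limit, 0 were lower after dehydration 1 h than in the control (2.16%) and 4 were higher after dehydration 3 h than after 1 h (2.36%). Dehydration against ABA at 3 h gave 0 higher (4.62%) and 1 lower (2.94%). Of 360 log2 ratios of single wax genes under other scalings and FPKM, 143 moved beyond their counting interval and 0 of those past 2-fold changed sign. WSD1 after dehydration 3 h moved most, to 3.10 with log2(FPKM + 1). Among other lists, 83 of 648 counts moved by more than 1.5 times. ACCNAAC before the gene start alone was found in 1 promoter. For all measured genes, the number higher after dehydration 3 h was 3069 with no filter and 1989 with it, and 1114 at a 3-fold limit.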
